A study of Canis lupus familiaris with 18 samples.

Results

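The line by low light interaction asks whether low light changed transcript levels differently in dog kidney MDCKI cells that carry bPAC and in the parental MDCKI cells without it. For each gene it is the log2 change of bPAC cells from no light to low light, minus the same log2 change of parental cells. A value above 0 means that bPAC cells moved further up, or less far down, than parental cells. The libraries were taken by their labelled line and light dose, which gave 13 of the 18 libraries of the series: 4 of bPAC cells in low light, 3 of bPAC cells without light, 3 of parental cells in low light and 3 of parental cells without light. The other 5 libraries, 3 of bPAC and 2 of parental cells in high light, were not part of the difference. They entered the fitted model and served as libraries outside the contrast.

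All cells were grown in medium with 0.5% serum, and the 2 h with or without light began 16 h after plating. The labels name the doses as low and high without a unit, and give neither the promoter that drives bPAC nor whether the bPAC line is 1 clone. Replicates are not said to be separate cultures. The p-values thus rest on the spread among the libraries of a group, and that spread may be technical. The tables list dog genes, so the bPAC transcript itself could not be used to check the line labels.

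MDCKI cells are a tight epithelial strain from dog kidney, much used to study polarity, junctions and transport. bPAC, a light-gated adenylyl cyclase from a bacterium, turns ATP into cyclic AMP when blue light reaches its flavin. Cyclic AMP releases the catalytic subunits of protein kinase A, which phosphorylate targets in the cytoplasm and, in the nucleus, the transcription factor CREB. The parental line received the same light without the cyclase, and the interaction is the contrast in which a light effect shared by the lines cancels.

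Sequencing gave between 2803728 and 9610144 gene reads in the 13 libraries, and 8530 genes passed the filter on low counts. Genes are known here by their Ensembl dog IDs alone: 0 of the IDs matched the RefSeq gene table, so no gene function, pathway list or marker of the cell type could be set beside the values. On the first principal component of the 13 libraries, with 45.7% of the variance, low light libraries scored from 10.6 to 72.1 in bPAC and from 12.5 to 29.7 in parental cells, and libraries without light from -55.7 to -32.9 in bPAC and from -41.7 to -4.00 in parental cells. bPAC low light libraries 1 and 4 stood apart at 60.5 and 72.1, against 10.6 and 17.6 for libraries 2 and 3. The second component, with 19.5% of the variance, put all bPAC libraries below all parental libraries. Reads that overlapped more than 1 gene moved with light in both lines: per 100 gene reads there were 0.0475 to 0.0581 in bPAC low light against 0.0352 to 0.0411 in bPAC no light, and 0.0528 to 0.0605 in parental low light against 0.0329 to 0.0404 in parental no light. Their part in the results was not tested.

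The lines differed in their response to low light for 3 of the 8530 tested genes, or 0.0352%, at an edgeR adjusted p under 0.05. For 2 genes (0.0234%) the bPAC response lay above the parental one, and for 1 gene (0.0117%) it lay below. ENSCAFG00000006638 fell 5.32-fold with low light in bPAC cells, against a 1.20-fold higher parental level that missed the threshold. ENSCAFG00000016984 rose 5.66-fold in bPAC cells, and its parental level was 1.36-fold higher with low light and missed the threshold. ENSCAFG00000018583 rose 2.10-fold in bPAC cells, while its parental level was 1.36-fold lower in low light and missed the threshold. At an unadjusted p under 0.05 there were 507 genes, 5.94% of those tested, with 279 above 0 (3.27%) and 228 below 0 (2.67%). Single libraries moved both counts. Without parental no light replicate 1 there were 6 genes called and 1034 at the unadjusted threshold. The call was left for 1 gene without parental no light replicate 3, bPAC no light replicate 2 or 3, or parental low light replicate 2, with 244, 326, 459 and 289 genes at the unadjusted threshold. Without bPAC low light replicate 2 there were 860. Without a filter on low counts 76 genes were called, 63 of them below 0, among 16648 tested.

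ENSCAFG00000006638 had the smallest p of all genes. In bPAC cells it had 13.4, 19.4, 14.3 and 10.1 CPM in low light (reads of the gene relative to all gene reads of the library, scaled between libraries by TMM), against 70.2, 75.4 and 82.1 CPM without light. In parental cells it had 23.8, 25.4 and 22.9 CPM in low light, against 28.6, 15.6 and 15.4 CPM without light. The bPAC groups were far apart and the parental groups overlapped. The gene averaged 14.3 ± 3.89 CPM (SD, n = 4) in bPAC low light and 75.9 ± 5.93 CPM (SD, n = 3) in bPAC no light. In parental cells it averaged 24.1 ± 1.26 CPM in low light and 19.8 ± 7.57 CPM without light (SD, n = 3 each). The log2 change was -2.41 in bPAC cells and 0.26 in parental cells, and their difference was -2.67 (SE 0.35, 95% interval -3.41 to -1.93, edgeR adjusted p = 0.00296). The ratio of the 2 light effects was thus 0.157, with an interval of 0.0943 to 0.262.

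This gene also differed between the lines in the libraries without light. It was 3.77-fold higher in bPAC than in parental cells without light (edgeR adjusted p = 0.000125), where 6.53% of the tested genes were called between the lines. In low light the order of the lines was the opposite, with bPAC cells 1.69-fold lower, which missed the threshold (edgeR adjusted p = 0.0661), and 7% of the tested genes were called there. The high light libraries, which entered the model but not the contrast, had 14.4, 15.3 and 18.6 CPM in bPAC cells and 37.7 and 28.2 CPM in parental cells. bPAC cells were lower there too, 2.06-fold (edgeR adjusted p = 0.023), and the groups did not overlap. In this comparison of the lines at high light 12.2% of the tested genes were called. The low light call was kept in all 27 alternative settings of the model, with adjusted p-values up to 0.0232.

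**Figure D1:**
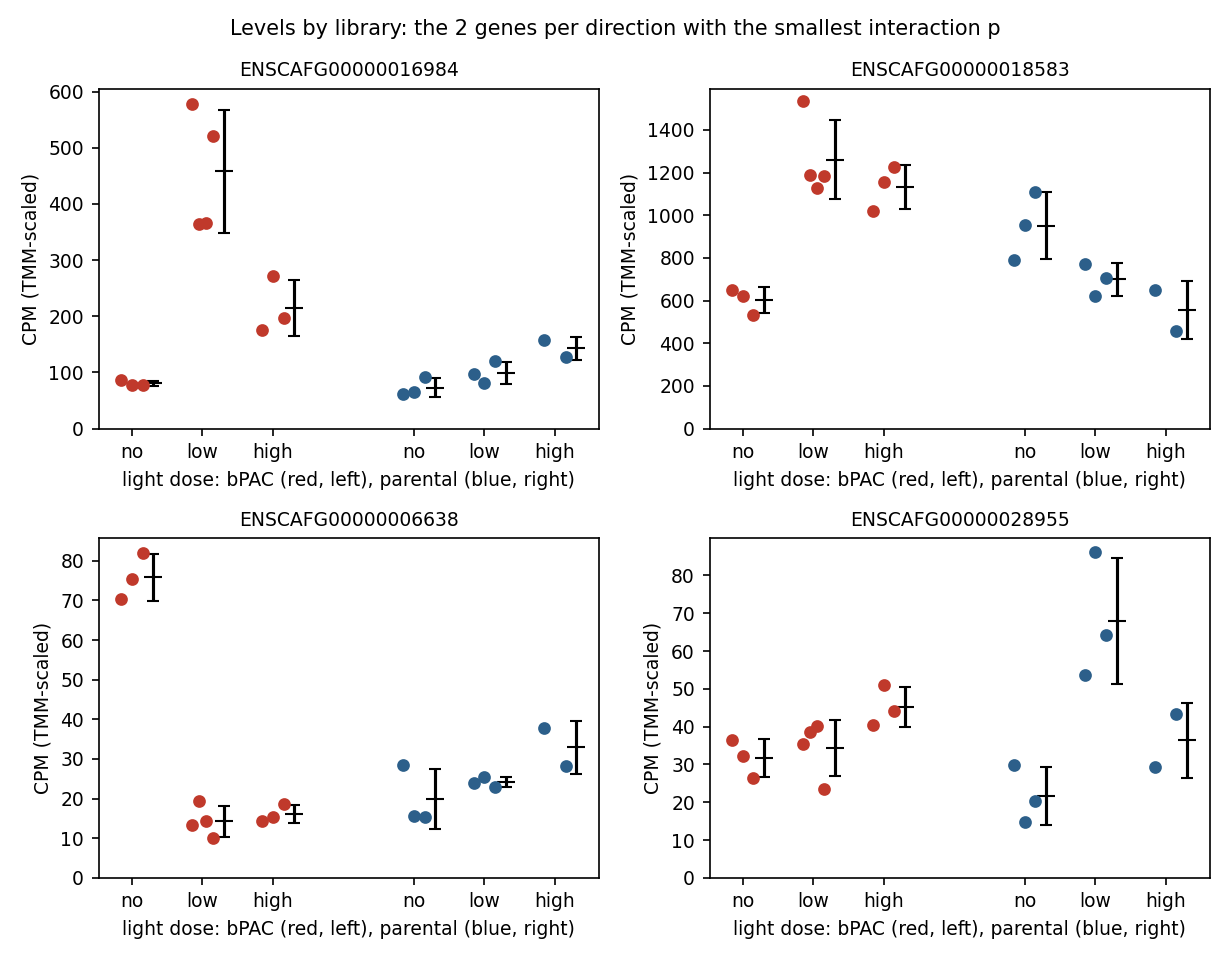
Levels in CPM (y axes, starting at 0) of the 2 genes per direction with the smallest interaction p, by light dose (x axis, no, low and high) in bPAC cells (red, left) and parental cells (blue, right). Points are libraries and black bars the mean and SD of a group. ENSCAFG00000006638 is lower in low light in bPAC cells, ENSCAFG00000016984 is highest in the 4 bPAC low light libraries, ENSCAFG00000018583 moves in opposite directions in the lines, and ENSCAFG00000028955 is higher in low light in parental cells.

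ENSCAFG00000016984 gave the second smallest p. In bPAC cells it had 578, 364, 367 and 522 CPM in low light, against 86.0, 78.4 and 77.9 CPM without light. The parental libraries had 96.8, 81.4 and 120.3 CPM in low light, against 62.1, 64.6 and 92.7 CPM without light, and these overlapped. Within bPAC low light the values formed the pairs of the first principal component, higher in libraries 1 and 4 than in libraries 2 and 3, and all 4 lay above every parental value. The log2 change was 2.50 in bPAC and 0.45 in parental cells, a difference of 2.06 (SE 0.31, 95% interval 1.40 to 2.71, edgeR adjusted p = 0.0113). It was 1.71 without bPAC low light libraries 1 and 4 (edgeR adjusted p = 0.0436) and 2.37 without libraries 2 and 3 (edgeR adjusted p = 0.00172). Leaving out any of 4 single libraries ended the call: parental no light replicate 3 (edgeR adjusted p = 0.0602), bPAC no light replicate 2 (0.0699) or 3 (0.065) and parental low light replicate 2 (0.0867), with differences from 1.89 to 2.05.

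Between the lines ENSCAFG00000016984 was 1.11-fold higher in bPAC cells without light (edgeR adjusted p = 0.758) and 4.60-fold higher in low light (edgeR adjusted p = 4.61e-06). In high light it had 176, 272 and 196 CPM in bPAC cells and 158 and 128 CPM in parental cells. The groups did not overlap, but the 1.51-fold difference missed the threshold (edgeR adjusted p = 0.137). The large gap between the lines was thus measured in low light, where the bPAC mean was 458 ± 109 CPM (SD, n = 4), and not at the high dose, where it was 215 ± 50.4 CPM (SD, n = 3).

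ENSCAFG00000018583 was the third gene called. It had 1536, 1189.8, 1129.8 and 1186 CPM in bPAC low light, against 649, 623 and 533 CPM in bPAC no light. Its parental levels were 772, 620.4 and 704 CPM in low light, against 790.3, 957 and 1107 CPM without light. In neither line did the groups overlap, and they were ordered in opposite ways. The log2 change was 1.07 in bPAC cells (edgeR adjusted p = 0.000481) and -0.44 in parental cells, where it missed the threshold (edgeR adjusted p = 0.108). The difference was 1.51 (SE 0.25, 95% interval 1.00 to 2.03, edgeR adjusted p = 0.0182).

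Without light the bPAC line had less of ENSCAFG00000018583, at a log2 difference between the lines of -0.66 (edgeR adjusted p = 0.032), and in low light more, at 0.85 (edgeR adjusted p = 0.00396). In the high light libraries the order was that of low light: 1019.8, 1154 and 1224 CPM in bPAC cells and 652 and 459 CPM in parental cells, a log2 difference of 1.03 (edgeR adjusted p = 0.00307). The interaction call rested on several single libraries. It was lost without parental no light replicate 2 (edgeR adjusted p = 0.0635) or 3 (0.0995), bPAC no light replicate 2 (0.0699) or 3 (0.0946), and parental low light replicate 2 (0.12) or 3 (0.0695), while the difference stayed between 1.43 and 1.55.

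Of the genes not called, the smallest p belonged to a gene with an interaction of 1.55 and an edgeR adjusted p of 0.251. The second smallest p below 0 at a mean of at least 5 CPM was that of ENSCAFG00000028955, with rank 10 among all genes. It had 35.3, 38.5, 40.1 and 23.6 CPM in bPAC low light, against 36.4, 32.2 and 26.5 CPM in bPAC no light. In parental cells it had 53.5, 86.2 and 64.3 CPM in low light, against 29.9, 14.8 and 20.3 CPM without light. Here the parental groups lay apart and the bPAC groups overlapped. The log2 change was 0.11 in bPAC and 1.63 in parental cells, and the difference of -1.52 (95% interval -2.29 to -0.76) did not pass the correction (edgeR adjusted p = 0.423). In high light 40.5, 50.9 and 44.2 CPM in bPAC cells and 29.4 and 43.3 CPM in parental cells overlapped (edgeR adjusted p = 0.541).

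**Figure D2:**
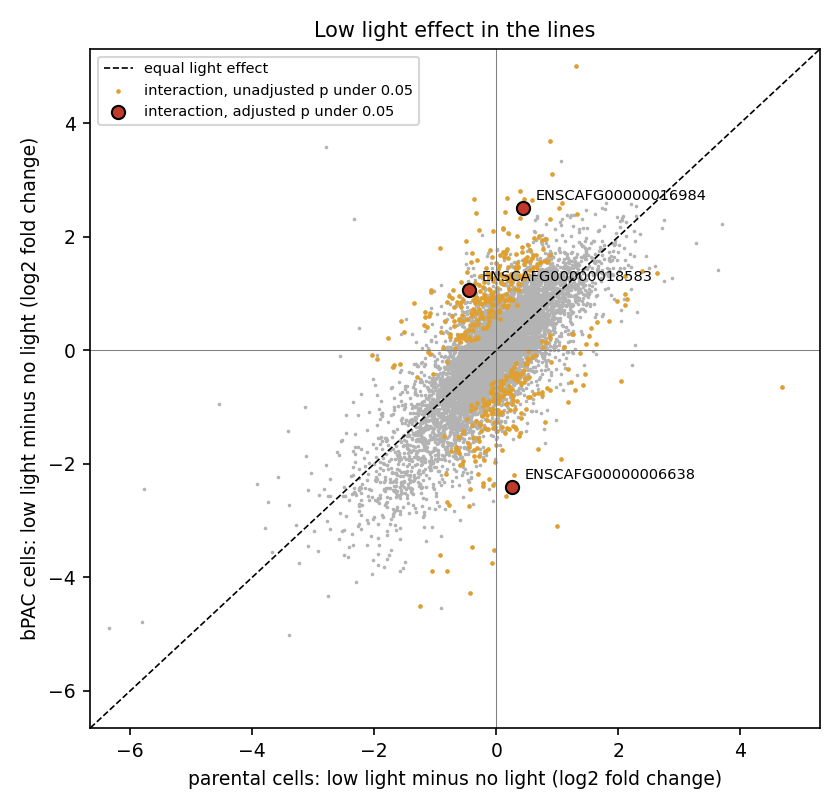
Log2 change from no light to low light in bPAC cells (y axis) against that in parental cells (x axis) for the 8530 tested genes, in grey. The dashed line marks equal effects, orange points are the 507 genes at an unadjusted interaction p under 0.05, and the 3 red points are the genes called, which lie far from the dashed line.

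The 20 genes with the smallest interaction p show the kinds of difference that ranked high, as a description. In 14 of them the interaction was above 0 and in 6 below 0. The light effect was larger in size in bPAC cells for 18 of the 20, against 65.1% of all tested genes, a share that was 48.5% with 1 surrogate variable, an axis of variation estimated from the counts, in the model. It had opposite signs in the lines for 12, against 22.7% of all tested genes. Both counts follow in part from ranking by the difference. Among the 507 genes at an unadjusted p under 0.05, the fitted changes were up in bPAC and down in parental cells for 146 and the reverse for 114. Both lines went up in another 145 and both went down in 102. Over all tested genes 1058 were up in bPAC and down in parental cells, 877 the reverse, 3302 up in both and 3293 down in both. The sign patterns of the 507 follow in part from their selection, because the difference is largest where signs are opposite.

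More genes were called for low light within each line than the 3 called in the interaction. In bPAC cells 3009 genes, 35.3% of those tested, were called between low light and no light, 17.2% higher and 18.1% lower. In parental cells 976 were called, or 11.4%, with 6.76% higher and 4.68% lower. Both counts hung on single libraries. The bPAC count was 1734 without bPAC no light replicate 2, and the parental count was 242 without replicate 2 of parental no light. Leaving out a parental low light library gave 268 (replicate 2) and 634 (replicate 1). The order of the lines turned in 2 fits. Without bPAC low light libraries 1 and 4, 1030 genes were called in bPAC and 1451 in parental cells. With 1 surrogate variable 219 were called in bPAC and 1151 in parental cells. On that variable every bPAC low light library scored below every bPAC no light library, while the parental groups overlapped. That fit thus cannot tell the variable apart from part of the bPAC light effect. In the reported model the p-values of the light effects piled up near 0, with 3921 (bPAC) and 2422 (parental) genes under an unadjusted 0.05. Those of the interaction had no such peak, with 507 genes in the lowest bin of 0.05 and 520 and 541 in the next bins. They were not evenly spread either: each bin under 0.3 held 507 to 541 genes, and each bin from 0.8 up held 317 to 366.

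**Figure D3:**
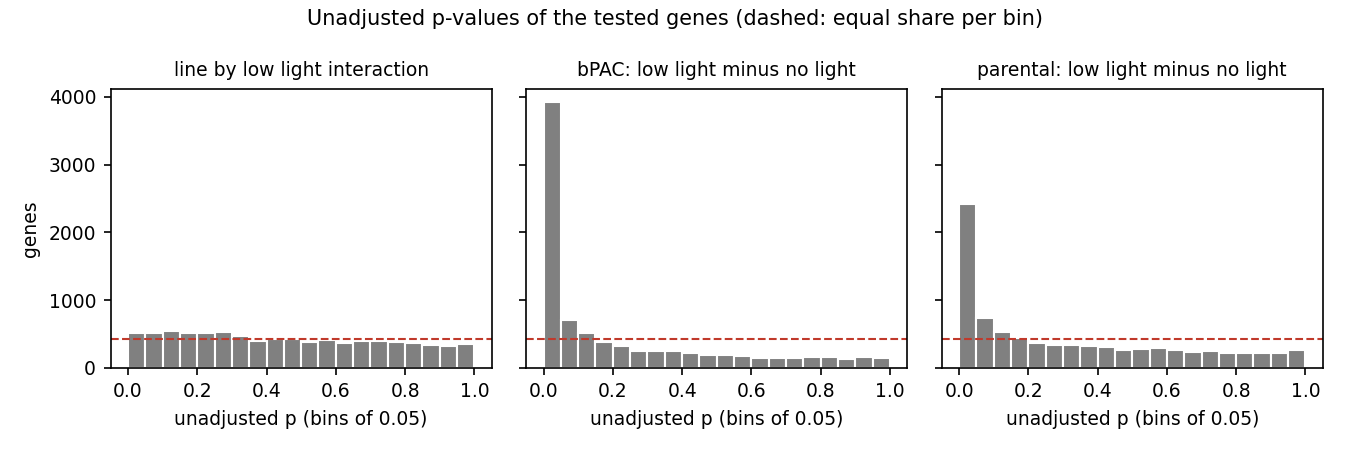
Number of tested genes (y axes) by unadjusted p (x axes, bins of 0.05) for the interaction and for low light against no light in bPAC and in parental cells. The dashed line is an equal share per bin. The lowest bin holds 507 genes for the interaction, 3921 for bPAC and 2422 for parental cells.

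Most genes called in 1 line and not in the other had an interaction interval that held 0, which does not show equal responses. These genes still reached the unadjusted threshold of the interaction more often than all tested genes. Over all tested genes the 95% interval of the interaction held 0 for 94.1%, and the light effects of the lines had the same sign for 77.3%. Of the 2192 genes called in bPAC cells and not in parental cells, the interval held 0 for 1857, or 84.7%, and the parental change had the same sign for 2045, or 93.3%. The unadjusted threshold was passed by 335 of them, or 15.3%, against 5.94% of all tested genes. The 976 of them that were higher in low light had a median log2 change of 0.95 in bPAC and 0.45 in parental cells. The 1216 that were lower had medians of -1.26 and -0.61. The whole interval lay within 1 log2 unit of 0 for 27.0% of the 976 and 15.2% of the 1216, against 31.8% of all tested genes. Of the 159 genes called in parental and not in bPAC cells, the interval held 0 for 132, or 83.0%, 27 or 17.0% passed the unadjusted threshold, and the bPAC change had the same sign for 158. These lists were chosen by the light effects that make up the interaction, so their shares and medians are a description.

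The interaction, as the difference of 2 light effects that share no library, was necessarily measured less precisely than either. Its median SE over genes was 0.43 on the log2 scale, against 0.29 for low light in bPAC and 0.31 in parental cells. An interaction of at least 1 in size, a 2-fold ratio of ratios, was estimated for 900 genes, of which 3 were called. For 2710 genes, or 31.8%, the whole 95% interval lay within 1 log2 unit of 0, so that a difference of 2-fold or more between the lines was outside the interval. This share depended on the level. It was 63.4% in the tercile of genes with the highest mean CPM, 30.3% in the middle tercile and 1.62% in the lowest, where the median SE was 0.68. Of the 817 genes called in the same direction in both lines, 459 had an interval within 1 log2 unit, and the median interaction was 0.024 for the 492 that rose and -0.032 for the 325 that fell.

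The strongest light responders of each line illustrate this range. In bPAC cells the smallest p-values among genes not named above were those of ENSCAFG00000017937 and ENSCAFG00000012754, which rose, and ENSCAFG00000012050 and ENSCAFG00000014846, which fell. ENSCAFG00000012754 had 198, 144, 131 and 188 CPM in bPAC low light, against 57.9, 36.3 and 40.4 CPM in bPAC no light. Its parental levels were 167, 169 and 131 CPM in low light, against 47.4, 30.8 and 42.9 CPM without light. The gene rose in both lines, and the interaction was -0.06, with a 95% interval of -0.69 to 0.57 (edgeR adjusted p = 0.96).

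ENSCAFG00000017937 averaged 1053 ± 252 CPM (SD, n = 4) in bPAC low light and 189 ± 57.6 CPM (SD, n = 3) in bPAC no light. In parental cells it averaged 656 ± 102 CPM in low light and 190.4 ± 42.6 CPM without light (SD, n = 3 each). It rose in both lines, 5.58-fold and 3.45-fold, and the interaction of 0.70 had an interval of -0.00 to 1.40 (edgeR adjusted p = 0.809). In the high light libraries the order of the lines was the opposite, with 623, 799.7 and 535 CPM in bPAC cells and 1549.5 and 1210.1 CPM in parental cells (edgeR adjusted p = 0.0125).

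For the 2 genes that fell in bPAC cells the parental change was smaller and did not pass the threshold. ENSCAFG00000014846 had 102, 123, 99.5 and 68.8 CPM in bPAC low light, against 237, 231 and 230.0 CPM in bPAC no light. In parental cells it had 132, 155 and 145 CPM in low light, against 216, 175 and 149 CPM without light. Its interaction was -0.92 (95% interval -1.46 to -0.38), and that of ENSCAFG00000012050 was -1.18 (95% interval -1.88 to -0.48). Neither passed the correction over all genes (edgeR adjusted p = 0.701 and 0.711). Both were lower in bPAC than in parental cells in the high light libraries, at log2 differences of -0.90 (edgeR adjusted p = 0.00798) and -1.10 (edgeR adjusted p = 0.0125).

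The parental line's own strongest responders also moved in bPAC cells. ENSCAFG00000004723 had 24.3, 20.3, 19.3 and 24.0 CPM in bPAC low light, against 8.73, 7.81 and 9.18 CPM in bPAC no light. Its parental levels were 38.0, 45.3 and 35.3 CPM in low light, against 11.8, 10.7 and 10.8 CPM without light. It rose 2.56-fold in bPAC and 3.54-fold in parental cells, with an interaction of -0.47 (95% interval -1.07 to 0.13). ENSCAFG00000030114 rose 2.46-fold and 4.30-fold, with an interaction of -0.81 (95% interval -1.48 to -0.13). Among the genes that fell, ENSCAFG00000000118 had log2 changes of -0.97 in bPAC and -1.11 in parental cells and an interaction of 0.15 (95% interval -0.36 to 0.65). ENSCAFG00000015181 had -1.06 and -1.68, and an interaction of 0.62 (95% interval -0.26 to 1.49). None of these 4 interactions passed (edgeR adjusted p from 0.809 to 0.901).

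Across the 3 doses the light responders common to both lines did not share 1 shape. In parental cells ENSCAFG00000004723 averaged 11.1 ± 0.569 CPM without light (SD, n = 3), 39.5 ± 5.21 CPM in low light (SD, n = 3) and 17.8 ± 1.87 CPM in high light (SD, n = 2), so that it was highest in low light. In bPAC cells it averaged 8.57 ± 0.698 CPM without light, 22.0 ± 2.57 CPM in low light and 14.4 ± 2.68 CPM in high light (SD, n = 3, 4 and 3), in the same order. ENSCAFG00000017937 differed: its parental mean was 190.4 ± 42.6 CPM without light, 656 ± 102 CPM in low light and 1379.8 ± 240.0 CPM in high light (SD, n = 3, 3 and 2), while in bPAC cells its mean was highest in low light. In high light against no light 24.6% of the tested genes were called in bPAC cells and 0.176% in parental cells, where high light had 2 libraries.

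**Figure D4:**
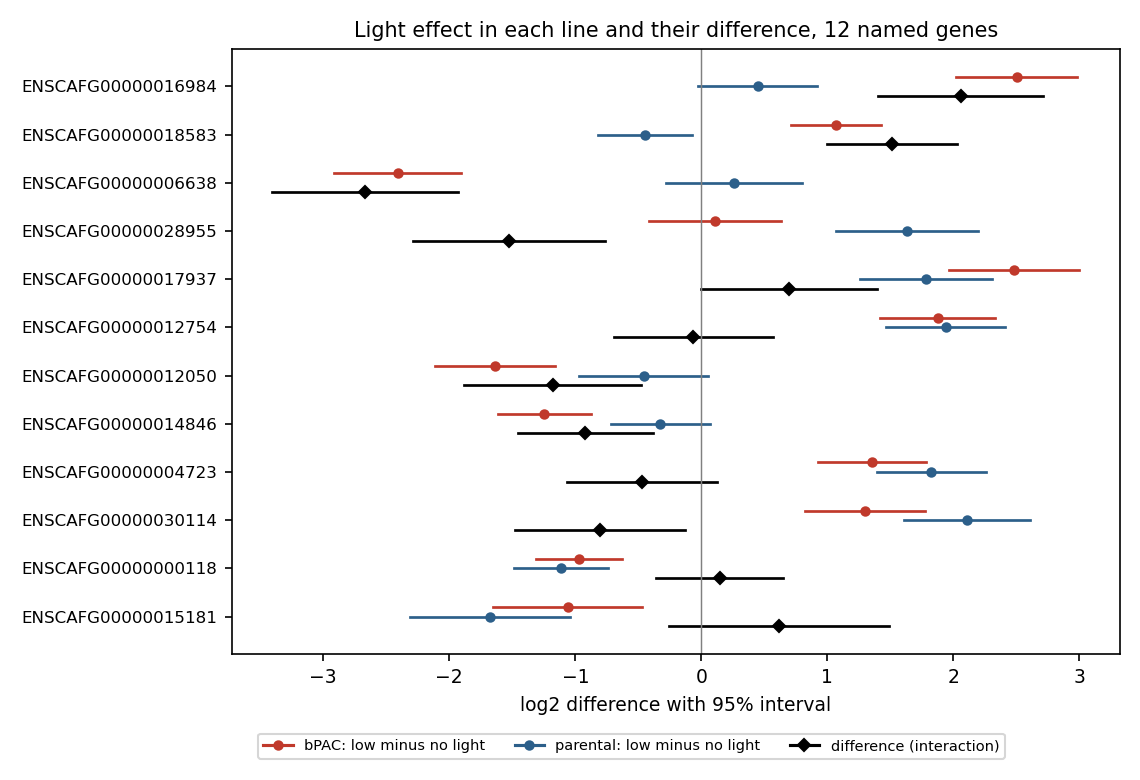
Log2 change from no light to low light in bPAC cells (red) and parental cells (blue), and their difference, the interaction (black diamonds), with 95% intervals (x axis), for 12 genes (rows). The upper 3 genes are those called. The fitted changes of the lines have the same sign in all rows but those of ENSCAFG00000006638 and ENSCAFG00000018583.

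Over all tested genes the light effect was larger in size in bPAC cells for 5557 of 8530, or 65.1%, with a median absolute log2 change of 0.57 in bPAC and 0.40 in parental cells. This share depended on the libraries in the fit. Leaving out 1 library gave from 59.7% (without parental no light replicate 1) to 69.5% (without bPAC no light replicate 1). Without bPAC low light libraries 1 and 4 it was 53.4%, with medians of 0.45 and 0.40, and without libraries 2 and 3 it was 73.0%. With 1 surrogate variable, on which libraries 1 and 4 had the most extreme scores, it was 48.5%. On that variable the bPAC low light libraries scored -0.682 to 0.0277 and the bPAC no light libraries 0.138 to 0.266. The variable cannot be told apart from part of the bPAC light effect. The 3 genes called in the interaction were also called without either pair of libraries and with 1 surrogate variable.

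The high light libraries gave values for the lists outside the contrast. The 279 genes at an unadjusted p under 0.05 with an interaction above 0 had a median log2 difference between bPAC and parental cells at high light of 0.07, with 53.4% above 0, and 19 of them, or 6.81%, were called higher in bPAC cells. The median of all tested genes was -0.02, with 48.9% above 0 and 6.58% called higher. The 228 genes with an interaction below 0 had a median of -0.45, with 71.1% below 0, and 38 of them, or 16.7%, were called lower in bPAC cells. Over all tested genes 51.1% were below 0 and 5.63% were called lower. Without light the median log2 difference between the lines was -0.75 for the 279 genes and 0.59 for the 228, against -0.01 for all tested genes. In low light it was 0.35 and -0.51, against -0.03. Both lists were chosen by the change between these 2 differences, so these medians follow in part from the selection. The high light values are differences in level and were not taken relative to no light. These shares and medians are set beside those of all genes as a description, without a test.

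**Figure D5:**
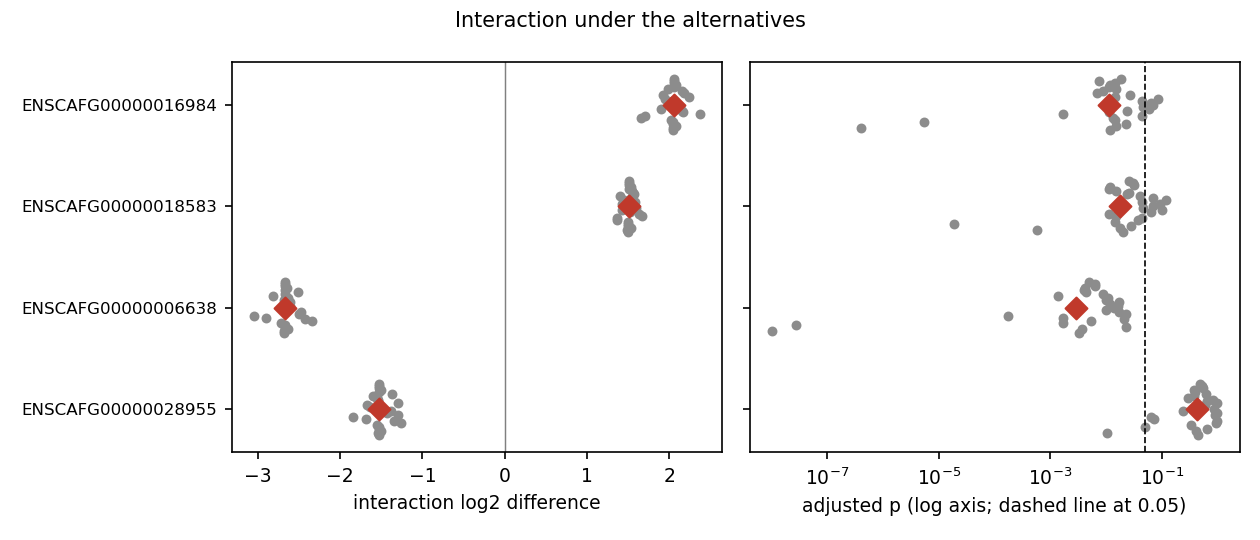
Interaction log2 difference (left, x axis) and its adjusted p (right, log x axis, dashed line at 0.05) for 4 genes (rows) in the reported model (red diamonds) and 27 alternative settings (grey points). No difference changes sign, ENSCAFG00000006638 stays under 0.05 throughout, and ENSCAFG00000028955 is under it in 2 settings.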

How the data were processed

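For each library the authors deposited raw counts, whole numbers of reads per gene, from RNA made into 3' end libraries with Lexogen's QuantSeq kit, per the labels' protocols. Such counts do not scale with transcript length. CanFam3.1 is the build that the submitters' processing notes name. Aligner, counting program and annotation: not given in the sources used here. Of the 5 entries that name no gene, all left out, the largest held 27.5% to 29.6% of reads in the 13 libraries as outside genes and 37.5% to 42.0% as aligned to more than 1 place, so genes with near copies are uncertain.

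All 18 libraries entered 1 model of 6 groups in edgeR 4.0.16 (R 4.3.3; filterByExpr at a minimum count of 10, TMM, glmQLFit with robust estimation, glmQLFTest), with Benjamini-Hochberg adjustment over all tested genes at 0.05. An SE is the absolute log2 difference divided by the square root of F, and intervals are at 95% and unadjusted. Replicates were numbered in accession order. Pairs of libraries of 1 group differed by more than sampling noise, with chi-square values of 9.41 to 72.7 per degree of freedom. Named genes are those with the 2 smallest p-values per direction in the interaction, then in each light effect, at a mean of at least 5 CPM in 1 of the 4 groups. Rule, lists and contrast were chosen with earlier results of these data known. Gene lists by symbol could not be run. The fit was also run on simulated data, and no error rate or power from that run is given here. Alternatives were DESeq2 1.42.0 and its size factors, limma-voom (limma 3.58.1), 2 other filters, only the 4 groups, 1 surrogate variable (sva 3.50.0), and fits without single libraries or pairs. The share of genes with a larger light effect in bPAC cells was added after the data were seen.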

Additional observations from a re-analysis of the deposited data

Results flagged for a closer look

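The 3 genes called in the interaction are listed because the test of the difference between the lines itself passed. The interaction was -2.67 for ENSCAFG00000006638, 2.06 for ENSCAFG00000016984 and 1.51 for ENSCAFG00000018583, on the log2 scale. All 4 bPAC low light libraries lay on the same side of all 3 bPAC no light libraries for each of them. That separation follows in part from how the genes were chosen, and its share over all tested genes was not counted.

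The 12 named genes were searched for a library far from the others in the bPAC low light group, the one with 4 libraries, and 1 such value was found. ENSCAFG00000018583 had 1536 CPM in bPAC low light 1, while the other 3 libraries had 1129.8 to 1189.8 CPM. Chance gives about 1 in 20 groups such a value. Without that library the interaction of the gene was 1.40 (edgeR adjusted p = 0.0412).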

How the results depend on the processing

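The count of 3 genes was the same with DESeq2's size factors, limma-voom, a filter at a mean of 5 CPM and only the 4 groups, and the 3 genes were called in each. It was 13 with the DESeq2 test (9 above 0, 4 below), where 3638 genes had no adjusted p, 5 with 1 surrogate variable, 6 without bPAC low light libraries 1 and 4, 28 without libraries 2 and 3, and 76 without a filter (13 above 0, 63 below, 75 of them among the 8530). Leaving out 1 library gave 1 to 6 genes. The count at an unadjusted p under 0.05 was 248 with 1 surrogate variable, 253 and 1520 without these pairs of libraries, 1097 without a filter over 16648 genes, and 244 to 1034 on leaving out 1 library, lowest without parental no light replicate 3 and highest without replicate 1 of that group. ENSCAFG00000012754, near 0, changed sign without bPAC low light libraries 2 and 3 (0.22) and ranged from -0.19 to 0.20 on leaving out 1 library. ENSCAFG00000028955 was called without a filter (adjusted p = 0.0106) and by DESeq2 (adjusted p = 0.0493), and ENSCAFG00000012050 without a filter (adjusted p = 0.0377). The cause of these differences was not tested. No paired analysis was possible because the labels give no replicate numbers.

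Precision was lower at lower levels: the median SE of the interaction was 0.68 in the lowest tercile of genes by level and 0.29 in the highest. In the lowest tercile 155 of 2844 genes, or 5.45%, had an unadjusted p under 0.05, against 5.94% of all tested genes.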
